A study of Ovis aries with 19 samples.

Results

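The fast fibre contractile proteins considered here are 10 genes of the fast-twitch sarcomere, MYH1, MYH2, MYL1, MYLPF, MYBPC2, ACTN3, TNNC2, TNNI2, TNNT3 and TPM1. They were chosen by gene name from the 28524 gene identifiers of the deposited table, and all 10 were found and measured. Skeletal muscle fibres shorten when myosin heads of the thick filament pull on the actin of the thin filament. Fast and slow fibres build the same machine largely from different gene copies, so that most fast proteins have a slow relative. Fast fibres contract quickly and tire early, and rely more on glycolysis, while slow fibres are more oxidative and endure. The troponins and tropomyosin sit on the thin filament and let calcium switch contraction on, and alpha-actinin anchors the thin filaments at the Z-disc.

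RNA of muscle was sequenced from 5 female sheep exposed to excess testosterone before birth (prenatal T) and from 5 female control sheep, 1 library per animal. Liver of the same animals gave 5 prenatal T and 4 control libraries. The labels give neither the dose and timing of testosterone, nor the age of the sheep, nor which muscle was taken, and name no agent given to the controls. Levels are normalized read counts, that is reads per gene divided by a scaling factor of the library. Reads per muscle library ran from 8741992 to 14331578 in prenatal T and from 8455563 to 12760690 in control sheep, and each member had at least 12862 reads in every muscle library, so counting error was small beside the spread between animals. Reads of a whole piece of muscle do not tell fewer fibres of a kind from less RNA per fibre.

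The members marked the tissue as the name says. Each member had a level of at least 13051 in each of the 10 muscle libraries. In the 9 liver libraries 8 members stayed at or below 35.7, and MYH1, the adult fast 2X myosin heavy chain, was listed at 0 in 7 of them. TNNI2 and TPM1 were the exceptions. TNNI2 lay between 8.67 and 81.5 in prenatal T and between 33.6 and 86.8 in control liver, and TPM1 lay between 407 and 796 in prenatal T and between 465 and 610 in control liver. TPM1 makes tropomyosins in many non-muscle cells too, so it marks fast fibres less strictly than the other members. Of the slow counterparts 11 of 12 were in the table and all 11 passed the filter described next, so the samples held both kinds of contractile genes. MYH7, the slow myosin heavy chain, was not used here.

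In muscle all 10 members had a lower mean in prenatal T than in control sheep, and none passed the test. The test was limma on log2(value + 1) over the 12966 genes whose mean over the muscle libraries reached 10, with Benjamini-Hochberg adjustment and a threshold of 0.05. The fitted log2 fold change was below 0 for 10 of 10 members, against 51.6% of all genes tested. Their median was -0.46, and that of all genes tested was -0.013. By limma 0 of 10 members had an adjusted p under 0.05, where 0% of all genes were called lower and 0.00771% higher, and by edgeR 0 of 10, where again 0% of all genes were called lower. By DESeq2 1 of 10 passed, TPM1, where 0.733% of all genes were called lower. At an unadjusted p under 0.05 limma gave 3 members, TPM1, MYBPC2 and ACTN3, all lower, against 7% of all genes lower at that level. At the same level edgeR gave 5 members lower, against 6.05% of all genes, and DESeq2 gave 6, against 6.69%. The count of 3 by limma changed when single animals were left out. It was 1 without prenatal T sheep 48 or 255 or without control sheep 98 or 131, and 0 without control sheep 132 or 179. It was 4 without prenatal T sheep 233 or control sheep 201. Each such fit also has 1 animal fewer. The log2 fold changes of TPM1, MYBPC2 and ACTN3 were -0.49, -0.63 and -0.51 with all animals. They were -0.45, -0.60 and -0.50 without sheep 132, and -0.41, -0.39 and -0.36 without sheep 48. Over all genes limma gave 1862 in either direction at the same level. It gave 1437 without sheep 48, 1699 without sheep 132 and 2237 without sheep 255. All 10 members stayed below 0 without each of the 10 muscle libraries in turn.

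The thick filament holds 5 of the members. Values below are given in the order of sheep 48, 63, 185, 233 and 255 for prenatal T and of sheep 98, 131, 132, 179 and 201 for control. MYH1 had 237059, 649586, 408026, 545811 and 518490 in the prenatal T sheep, against 785343, 612656, 713416, 773751 and 666896 in the control sheep. Sheep 48 was the lowest by far, 4 of the 5 prenatal T sheep lay under the lowest control, and sheep 63 lay within the control range. MYH1 averaged 471795 ± 156873 in prenatal T and 710412 ± 72604 in control sheep (SD, n = 5 each), 33.6% lower. The log2 fold change was -0.66 ± 0.40 (SE), with a 95% interval from -1.52 to 0.20 and a limma adjusted p of 0.476. At that same change the unadjusted limma p was 0.120, but 0.0277 with robust shrinkage and 0.485 with no filter. The SE thus depended on the fit as well as on the spread between animals. DESeq2 gave an unadjusted p of 0.0086, and no alternative gave an adjusted p under 0.138. Without sheep 48 the log2 fold change was -0.43. MYH1 alone took 2.67% to 5.60% of all reads in prenatal T and 4.86% to 6.52% in control muscle.

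MYH2, the fast 2A myosin heavy chain of more oxidative fast fibres, had 33901, 82078, 94822, 115163 and 23437 in prenatal T, against 123893, 125040, 37631, 66509 and 94423 in control sheep. Low animals stood in both groups, namely sheep 48 and 255 in prenatal T and sheep 132 among the controls, and the ranges overlapped widely. Its log2 fold change was -0.47 ± 0.46 (SE), with a limma adjusted p of 0.680. Leaving out single animals moved it over the widest range of the 10 members, and it was -0.14 without sheep 255, -0.27 without sheep 48 and -0.75 without control sheep 132. MYH1 and MYH2 are close copies, and how the authors counted reads that match both is not given in the sources used here, so the split between them is uncertain.

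MYBPC2, the fast form of myosin-binding protein C that runs in stripes along the thick filament, had 21257, 54278, 47819, 49887 and 39864 in prenatal T, against 78127, 59304, 67228, 69707 and 44274 in control sheep. Of the prenatal T sheep all 5 lay under the control mean and 2 lay under the lowest control, sheep 201. It averaged 42621 ± 13036 in prenatal T and 63728 ± 12780 in control sheep (SD, n = 5 each). The log2 fold change was -0.63 ± 0.27 (SE), with a 95% interval from -1.22 to -0.037, an unadjusted p of 0.0388 and a limma adjusted p of 0.324. Without sheep 48 it was -0.39.

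The myosin light chains clasp the neck of the myosin head. MYL1, the fast essential light chain, had 36717, 40256, 41810, 55093 and 41470 in prenatal T, against 50447, 78128, 52839, 68505 and 46579 in control sheep. Only sheep 233 of the prenatal T sheep lay within the control range. The log2 fold change was -0.45 ± 0.21 (SE), with an unadjusted p of 0.0552 and a limma adjusted p of 0.357. MYLPF, the fast regulatory light chain, lay between 93194 and 125680 in prenatal T and between 103268 and 130036 in control sheep. Its log2 fold change was near 0 at -0.10 ± 0.23 (SE), with a 95% interval from -0.59 to 0.38, and it was 0.10 when values were scaled to all reads of a library.

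**Figure D1:**
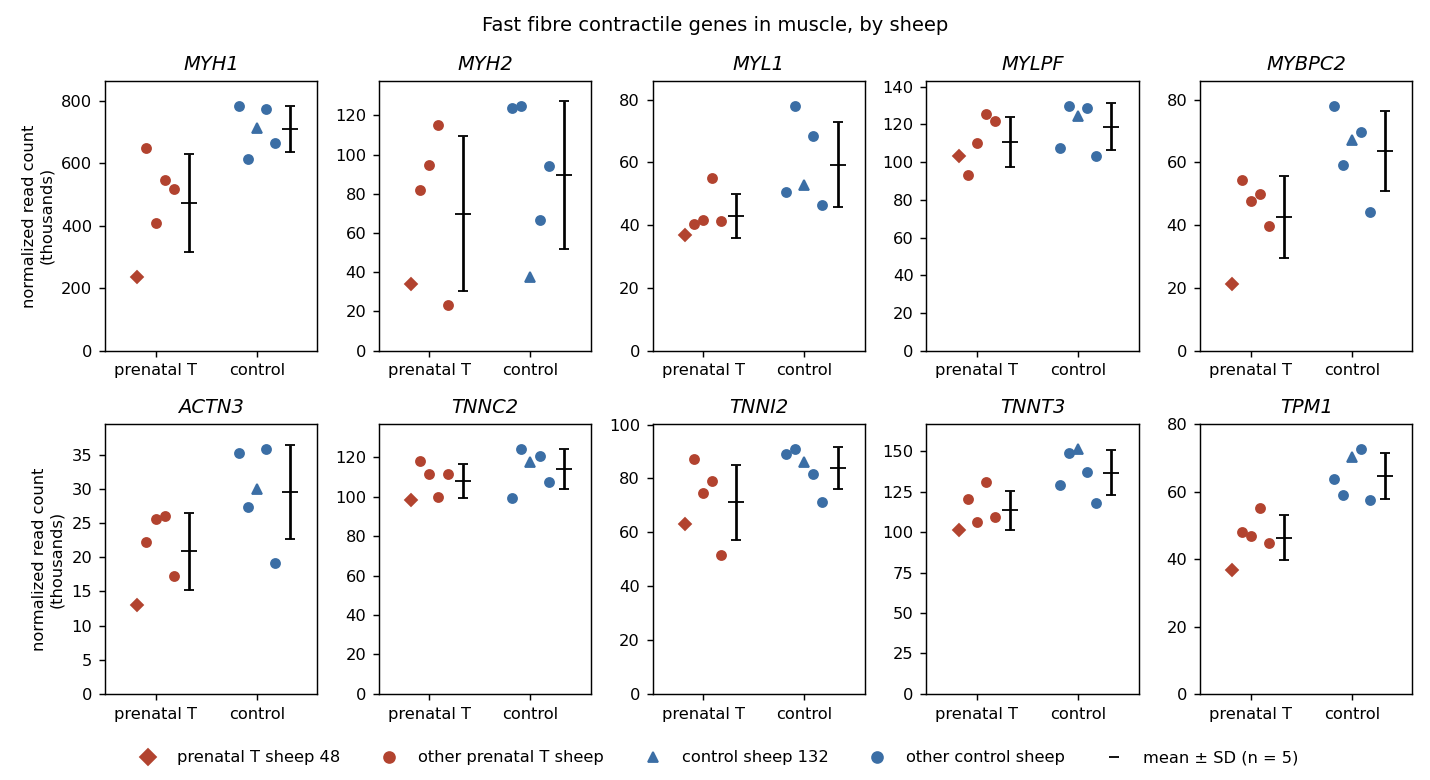
Normalized read count (vertical axis, from 0) of each member in muscle, with 5 prenatal T sheep on the left and 5 control sheep on the right of each panel; points are sheep, diamonds mark sheep 48, triangles mark control sheep 132, and black bars give the mean ± SD. For TPM1 the 5 prenatal T sheep lie under all 5 control sheep, and for the other 9 genes the groups overlap.

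ACTN3, the alpha-actinin of fast-fibre Z-discs, had 13051, 22311, 25621, 26088 and 17318 in prenatal T, against 35339, 27321, 30040, 35903 and 19143 in control sheep. Sheep 48 and 255 were the lowest of all, and sheep 201 was low among the controls. ACTN3 averaged 20878 ± 5604 in prenatal T and 29549 ± 6844 in control sheep (SD, n = 5 each). The log2 fold change was -0.51 ± 0.24 (SE), with an unadjusted p of 0.0499 and a limma adjusted p of 0.347.

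On the thin filament TPM1, the alpha-tropomyosin gene, had 36735, 47996, 47023, 55266 and 44697 in prenatal T, against 63765, 58919, 70251, 72779 and 57514 in control sheep. It was the 1 member of 10 whose groups did not overlap, and 1.53% of all genes tested lay wholly lower in this way. TPM1 averaged 46343 ± 6668 in prenatal T and 64646 ± 6745 in control sheep (SD, n = 5 each), 28.3% lower. The log2 fold change was -0.49 ± 0.19 (SE), with a 95% interval from -0.90 to -0.071, an unadjusted p of 0.0250 and a limma adjusted p of 0.283. DESeq2 gave an adjusted p of 0.0312, and over the 23 alternatives the adjusted p ran from 0.0312 to 0.700. The fitted change lay between -0.55 and -0.41 without each library in turn, and was -0.28 when scaled to all reads.

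The 3 fast troponins were nearer to their control levels. TNNT3, the fast troponin T that ties the complex to tropomyosin, had 101142, 120609, 105915, 130612 and 109144 in prenatal T, against 129098, 148695, 151448, 136852 and 117710 in control sheep. All 5 prenatal T sheep lay under the control mean and 3 under the lowest control. Its log2 fold change was -0.27 ± 0.23 (SE), with a limma adjusted p of 0.620. TNNI2, the fast inhibitory troponin, lay between 51627 and 87066 in prenatal T and between 71424 and 91036 in control sheep, at -0.26 ± 0.22 (SE). Its lowest animals were sheep 255 and sheep 48, and it was -0.15 without sheep 255. Scaled to all reads of a library the log2 fold change was -0.053 for TNNI2 and -0.064 for TNNT3, with the median of all genes at 0.19. TNNC2, the fast calcium-binding troponin, had the smallest difference of the 10, with 107931 ± 8417 in prenatal T and 113948 ± 10179 in control sheep (SD, n = 5 each). Its log2 fold change was -0.077 ± 0.22 (SE), with a 95% interval from -0.54 to 0.39, and it was 0.13 when scaled to all reads. For neither TNNC2 nor MYLPF does the limma interval exclude a change as large as the median of the members. That interval draws on the spread of other genes of like level as well as on the animals.

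**Figure D2:**
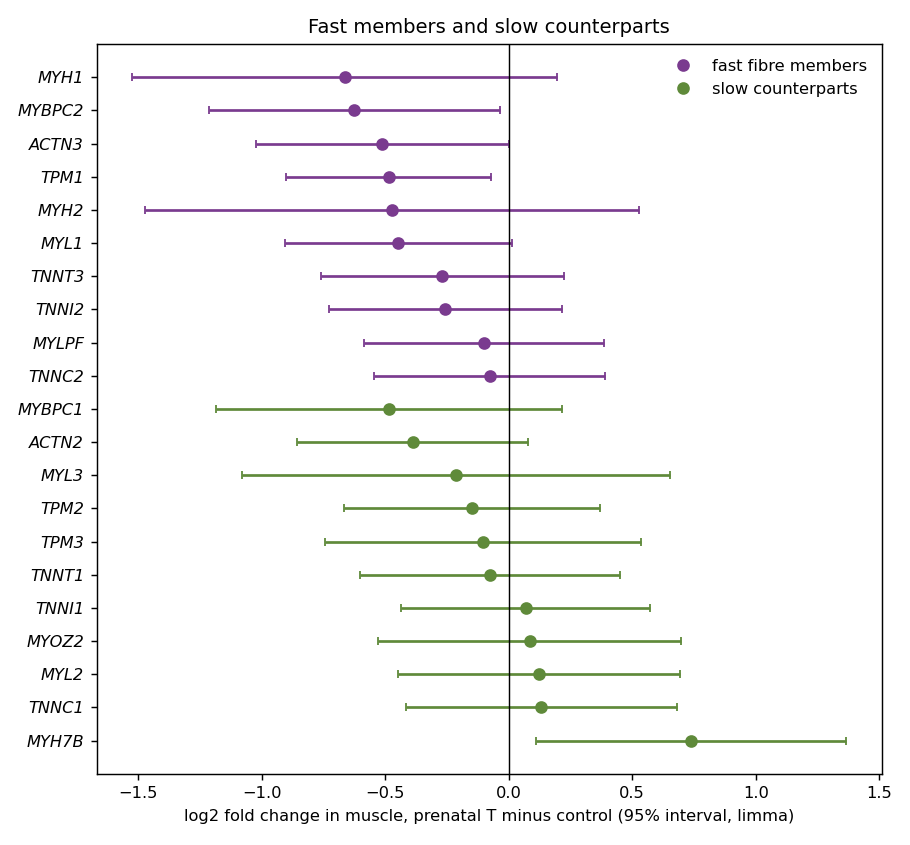
Log2 fold change in muscle, prenatal T minus control (horizontal axis), with its 95% interval from limma, for the 10 fast members above and 11 slow counterparts below. All 10 members lie left of 0, from -0.66 for MYH1 to -0.077 for TNNC2, and the slow counterparts lie from -0.49 for MYBPC1 to 0.74 for MYH7B.

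Animals differed within both groups. The lowest muscle library was a prenatal T sheep for 10 of 10 members and the highest a control sheep for 10 of 10. No share over all genes tested was taken for such counts by animal, so how unusual they are is not known. All 10 genes were read in the same animals, so these are not 10 separate observations. Sheep 48 was the lowest of all 10 animals for 7 members, and all 10 members lay under their mean there, with a median deviation of -0.50 on the log2 scale. Sheep 255 followed with 8 members under their mean and a median deviation of -0.27. Sheep 233 had only 3 members under the mean and sheep 63 had 5, so these prenatal T animals lay nearer to the controls. Among the controls sheep 201 stood low, with 7 members under the mean, whereas sheep 131 had 0 and sheep 98, 132 and 179 had 2 or fewer. Together the members took 8.40% to 11.7% of all reads in prenatal T and 11.5% to 13.1% in control muscle. Without sheep 48 the median log2 fold change of the members was -0.31.

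**Figure D3:**
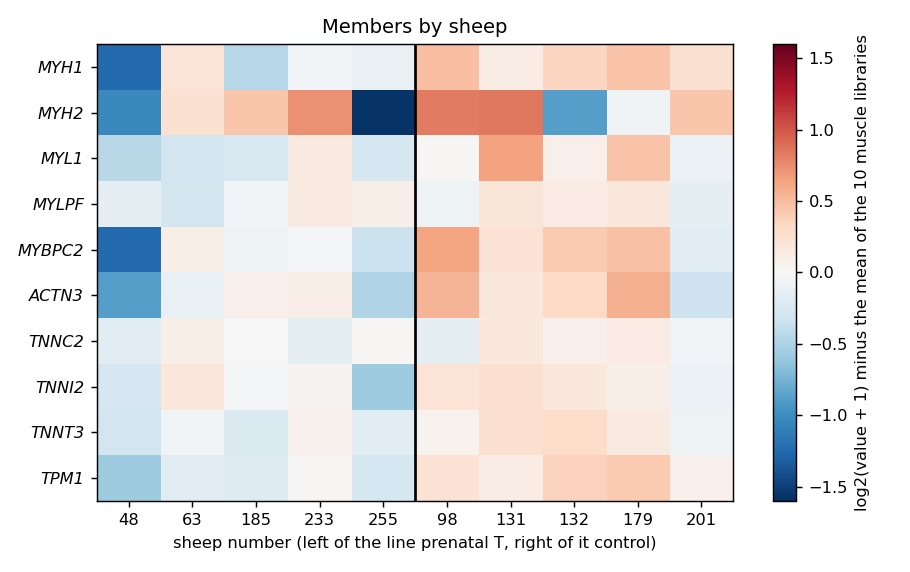
Each cell is log2(value + 1) of a member (rows) in a sheep (columns) minus the mean of the 10 muscle libraries for that gene; prenatal T sheep are left of the line and control sheep right of it. Sheep 48 is below the mean for all 10 genes, and MYH2 is also far below it in prenatal T sheep 255 and control sheep 132.

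The members did not all move together from animal to animal. As a description over the 10 muscle libraries, which share their scaling, Pearson's r between 2 members had a median of 0.57 over 45 pairs of genes and ran from -0.067 to 0.94. These r span both groups, so they also hold the difference between groups. With deviations from group means the median was 0.42, and without sheep 48 the median r was 0.49. MYBPC2 and ACTN3 were most alike, with r = 0.94, and 0.93 without sheep 48. MYH1 and MYBPC2 came next at 0.91, and 0.73 without sheep 48. At the other end MYH2 and MYLPF had r = -0.067. Spread differed by gene and group. The coefficient of variation of MYH1 was 33.3% in prenatal T and 10.2% in control sheep, and that of MYH2 was 56.7% in prenatal T and 42.1% in control sheep. For MYLPF it was 12.1% in prenatal T and 10.5% in control sheep, and for TNNC2 7.80% in prenatal T and 8.93% in control sheep.

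To ask whether the members stood apart from muscle genes of like abundance, each was set within its library against the partner nearest in mean read count from a list of 24 muscle genes. Such a ratio does not depend on the scaling of the library, and it is a ratio of reads that takes no account of transcript length. Differences of the mean log2 ratio, prenatal T minus control, were tested with exact two-sided permutation tests, adjusted over 22 ratios of 3 kinds, and with 5 against 5 animals the smallest p possible is 0.00794. None of the 10 same-level ratios passed, and none had an unadjusted exact p under 0.05. In 4 of the 10 the difference was below 0 and in 6 above 0. This split followed the partner. The 4 below 0 were the ratios to LDB3 and TTN, and the 6 above 0 were those to ATP2A1, PYGM and LDHA. These counts are not independent, since LDB3 and ATP2A1 each served several members. Several partners, among them ATP2A1 and PYGM, are fast fibre genes themselves. Their ratios therefore do not set the members against muscle genes of another kind. The partners themselves were mostly lower too: 21 of the 24 had a log2 fold change below 0, with a median of -0.36.

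The ratio of MYBPC2 to LDB3, a Z-disc protein, had the smallest p of this kind. It was 0.894, 1.255, 1.225, 0.942 and 1.052 in prenatal T, against 1.509, 1.015, 1.586, 1.447 and 1.260 in control sheep. The groups overlapped, and the difference of the mean log2 ratio was -0.34 (exact p = 0.0714, adjusted p = 0.716). TPM1 to LDB3 differed by -0.20 (exact p = 0.286) and MYL1 to LDB3 by -0.16 (exact p = 0.302). MYH1 had no partner near its level, and its ratio to TTN, the giant spring protein titin, differed by -0.19 (exact p = 0.222). The ratios of ACTN3 to LDHA, the lactate dehydrogenase of glycolytic muscle, and of MYH2 to PYGM, the muscle glycogen phosphorylase, differed by 0.11 and 0.043.

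Against ATP2A1, the calcium pump of fast fibres, MYLPF, TNNC2 and TNNT3 had higher mean ratios in prenatal T. The ratio of TNNC2 to ATP2A1 was 2.184, 0.906, 1.266, 0.749 and 1.513 in prenatal T, against 0.613, 0.885, 1.052, 0.982 and 1.153 in control sheep. Sheep 48, 255 and 185 lay above all controls, and sheep 63 and 233 lay inside the control range. The mean log2 ratio differed by 0.43 (exact p = 0.222). MYLPF to ATP2A1 differed by 0.40 (exact p = 0.246), TNNT3 to ATP2A1 by 0.23 (exact p = 0.429), and TNNI2 to PYGM by 0.26 (exact p = 0.238). These 4 differences leaned on sheep 48. Without it they were 0.22 for TNNC2, 0.19 for MYLPF, 0.036 for TNNT3 and 0.12 for TNNI2. Without control sheep 98 they were 0.28 for TNNC2 and 0.12 for TNNT3, and without sheep 63 they were 0.61 for MYLPF and 0.36 for TNNT3. All 22 adjusted p-values lay at or above 0.524.

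Fast members were also set against their slow counterparts. In all 8 pairs measured the mean log2 ratio was lower in prenatal T, by differences from -0.38 to -0.12, and 0 of 8 had an unadjusted exact p under 0.05. The counterpart of ACTN3, ACTN2, is the alpha-actinin of all fibres, so that pair is not strictly fast to slow. The largest difference was in TPM1 to TPM3, the slow tropomyosin, with 4.838, 7.717, 5.800, 5.905 and 7.551 in prenatal T, against 9.601, 3.477, 17.562, 8.030 and 7.711 in control sheep (difference -0.38, exact p = 0.405). The control animals spanned more than the prenatal T animals at both ends. Sheep 132 was the highest and sheep 131 the lowest of all 10 animals in this pair. TNNI2 to TNNI1, the slow inhibitory troponin, differed by -0.33 (exact p = 0.262). Without sheep 132 the difference was -0.11 both for TPM1 to TPM3 and for TNNI2 to TNNI1, and without sheep 131 it was -0.69 for TPM1 to TPM3. Sheep 132 also set the sign of some pairs. Without it MYL1 to MYL3 differed by 0.18, MYBPC2 to MYBPC1 by 0.11 and TNNT3 to TNNT1 by 0.030, while MYLPF to MYL2 differed by -0.022 and TNNC2 to TNNC1 by -0.034. Without control sheep 179 ACTN3 to ACTN2 differed by -0.0080.

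Of 4 ratios between members, MYL1 to MYLPF was the 1 of all 22 with an unadjusted exact p under 0.05. The ratio of the essential to the regulatory light chain was 0.356, 0.432, 0.379, 0.438 and 0.340 in prenatal T, against 0.470, 0.601, 0.424, 0.533 and 0.451 in control sheep. Control sheep 132 lay among the prenatal T animals, and the other 4 controls lay above all 5. The mean log2 ratio differed by -0.35 (exact p = 0.0238, adjusted p = 0.524). MYH1 to MYH2 ranged from 4.303 to 22.121 in prenatal T and from 4.900 to 18.958 in control sheep, a spread within each group far above the difference of -0.19 between their means (exact p = 0.738).

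**Figure D4:**
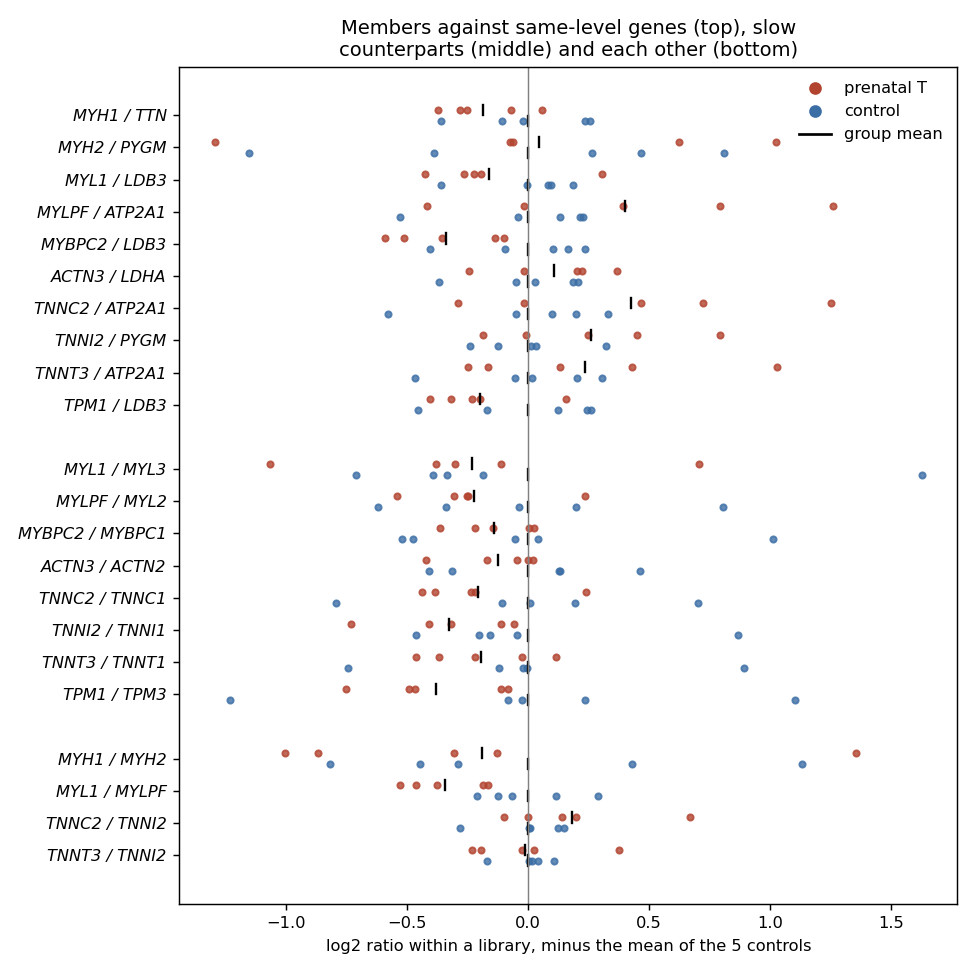
Log2 ratio of a member to another gene within each library, minus the mean of the 5 control sheep (horizontal axis), for 10 same-level partners, 8 slow counterparts and 4 pairs of members; red points are prenatal T sheep, blue points control sheep, and black ticks group means. The prenatal T mean lies left of the control mean in all 8 fast to slow pairs, and the groups overlap in every row.

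The slow counterparts had a median log2 fold change of -0.076, with 6 of 11 below 0. By limma 0 of 11 had an adjusted p under 0.05. At an unadjusted p under 0.05, 1 was higher, MYH7B, a slow-type myosin gene with a mean of 3394 ± 1359 in prenatal T and 2029 ± 739 in control sheep (SD, n = 5 each), against 7.37% of all genes higher at that level. MYBPC1, the slow myosin-binding protein C, had 110415 in prenatal T and 155735 in control sheep, and ACTN2, the alpha-actinin of all fibres, 39196 in prenatal T and 50847 in control sheep. TNNC1, the slow calcium-binding troponin, had 22006 ± 2466 in prenatal T and 21528 ± 9933 in control sheep (SD, n = 5 each), with the wider spread in the controls. Whether the fast and slow lists differ was tested only through the paired ratios above.

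Of the other genes of fast fibres 10 of 13 were below 0, with a median of -0.40, and -0.24 without sheep 48. By limma 0 of 13 had an unadjusted p under 0.05, against 7% of all genes lower and 7.37% higher. GPD1, a glycerol phosphate dehydrogenase that serves glycolysis, had 6062 ± 1627 in prenatal T and 8060 ± 1783 in control sheep (SD, n = 5 each). PYGM had 62289 in prenatal T and 86697 in control sheep, CASQ1, the calcium store protein calsequestrin, 14302 in prenatal T and 19080 in control sheep, and PGAM2, a muscle glycolytic enzyme, 11362 in prenatal T and 15186 in control sheep. AMPD1, the muscle AMP deaminase, was among the 3 above 0, with 9232 in prenatal T and 7245 in control sheep, and its highest level was 15161 in sheep 255. Of 8 genes listed under developing muscle 3 passed the filter, ACTC1, MYL6B and NCAM1, all 3 above 0 with unadjusted p-values of at least 0.147. MYL6B, a light chain of slow muscle and non-muscle cells, was not counted among the slow counterparts. It had 1650 ± 1217 in prenatal T and 766 ± 223 in control sheep (SD, n = 5 each). For MYL6B 4 prenatal T sheep lay above the highest control, and sheep 255, at 280, lay below the lowest. NCAM1, a cell adhesion gene, had a log2 fold change of 0.49, and of 0.75 with an unadjusted p of 0.0362 without sheep 48.

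Among 19 regulators of fibre type tested, 8 were below and 11 above 0, and 0 had an adjusted p under 0.05 by limma. At an unadjusted p under 0.05, 3 were lower (2 without sheep 48) and 1 higher, against 7% of all genes lower and 7.37% higher. TBX15, which in mice is found in glycolytic fast fibres, had 2308 ± 847 in prenatal T and 3859 ± 1058 in control sheep (SD, n = 5 each), a log2 fold change of -0.78 ± 0.25 (SE) with a limma adjusted p of 0.213. NFIX, which in mice drives the change from embryonic to fetal muscle genes, had 2013 ± 556 in prenatal T and 2946 ± 523 in control sheep (SD, n = 5 each), with an adjusted p of 0.247 by limma. Its groups did not overlap, but the highest prenatal T sheep and the lowest control both stood at 2446. SOX6, a repressor of slow fibre genes in mice, had 830 ± 185 in prenatal T and 1069 ± 121 in control sheep (SD, n = 5 each). MYOD1, a master regulator of muscle formation that in rodents is richer in fast muscle, was the higher one, with 158 ± 91.1 in prenatal T and 85.8 ± 35.5 in control sheep (SD, n = 5 each). Its level in sheep 255 was 318.

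**Figure D5:**
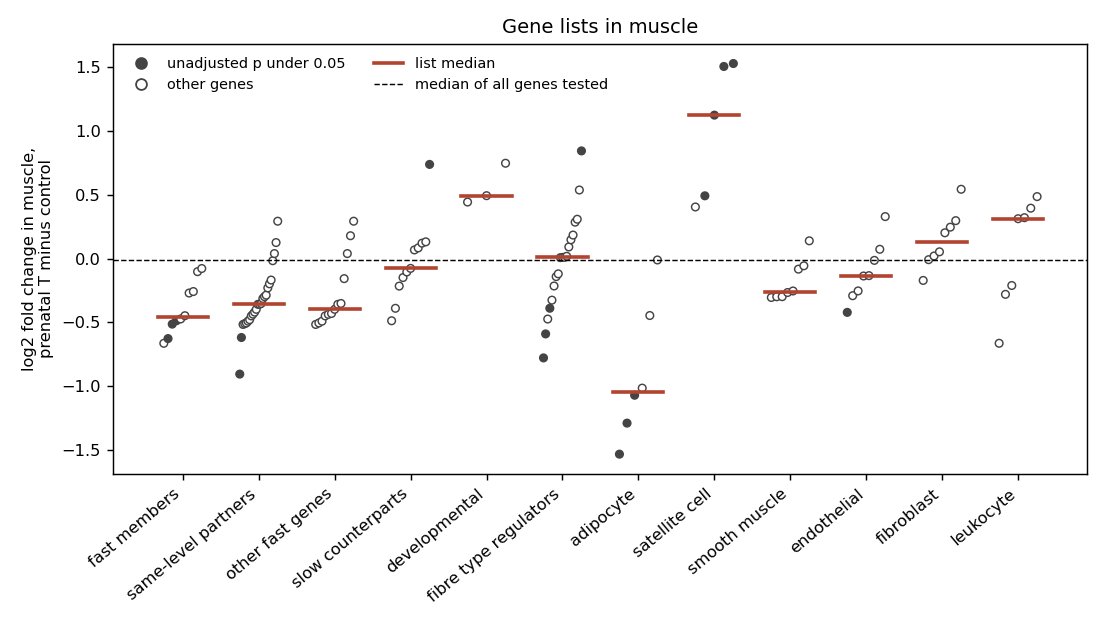
Log2 fold change in muscle, prenatal T minus control (vertical axis), of each tested gene of 12 lists; filled points have an unadjusted p under 0.05, red bars are list medians, and the dashed line is the median of all genes tested, -0.013. The fast members and their same-level partners lie mostly below the line, with medians of -0.46 and -0.36, the adipocyte list lies lower still and the satellite cell list above it.

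No marker of another cell type had an adjusted p under 0.05 by limma, where at an unadjusted p under 0.05 all genes tested gave 7% lower and 7.37% higher. Of the satellite cells, the stem cells of muscle, 5 of 5 tested markers were above 0 and 4 were higher at that level (3 without sheep 48), and the summed list ran, with overlap, from 1117 to 1850 in prenatal T and from 886 to 1204 in control sheep. SPRY1, with an unadjusted limma p of 0.0688, made up most of this sum. It averaged 1053 of a mean sum of 1461 in prenatal T and 779 of 1020 in control sheep. PAX7, the defining satellite cell factor, had 43.5 ± 16.2 in prenatal T and 15.1 ± 7.20 in control sheep (SD, n = 5 each), with a limma adjusted p of 0.151. All 5 prenatal T sheep lay above all 5 controls, as did 1.76% of all genes tested. Of the adipocyte markers 6 of 6 tested were below 0 and 3 were lower at that level (2 without sheep 48), and the summed list ran, again with overlap, from 1911 to 3150 in prenatal T and from 2468 to 4100 in control sheep. LPL, counted as below 0, was at -0.010, with a mean of 1175 in prenatal T and 1170 in control sheep. PLIN4 had 865 in prenatal T and 1172 in control sheep. LPL and PLIN4 made up most of the mean sums, 2426 in prenatal T and 3325 in control sheep. ADIPOQ, the adiponectin gene, had 70.9 ± 50.7 in prenatal T and 215 ± 134 in control sheep (SD, n = 5 each), and FABP4, a fatty acid carrier of fat cells, 264 ± 140.0 in prenatal T and 657 ± 394 in control sheep. Of 8 endothelial markers 6 were below 0, with 1 of 8 lower at that level, TEK, and the sum ran from 2776 to 4696 in prenatal T and from 3460 to 5091 in control sheep. No marker of the other lists had an unadjusted p under 0.05, with 7 of 8 smooth muscle, 2 of 8 fibroblast and 3 of 7 leukocyte markers below 0. Their sums ran from 4408 to 6258 in prenatal T and from 3746 to 7291 in control sheep for 7 smooth muscle markers, from 3673 to 11438 in prenatal T and from 4011 to 7025 in control sheep for fibroblasts, and from 407 to 1070 in prenatal T and from 422 to 710 in control sheep for leukocytes. Of the smooth muscle markers DES was counted but left out of the sum. DES is also in the list of same-level partners, with 94519 in prenatal T and 114281 in control muscle. The 5 liver markers summed to 14.6 to 135 in prenatal T and to 24.8 to 94.2 in control muscle. No marker was at 0 in all muscle libraries. The part of these cell types in the results was not tested. Among the prenatal T sheep, sheep 48, the lowest for 7 members, had the lowest adipocyte sum, at 1911, and the highest smooth muscle sum, at 6258. Single markers did not all follow these sums. PLIN4 was lowest in sheep 48, at 528, but ADIPOQ was 58.9 there and 31.6 in sheep 63. FABP4 was 295 in sheep 48 and 109 in sheep 233. RGS5 made up 4214 of the smooth muscle sum of sheep 48, whereas MYH11 was 201 there and 544 in sheep 255.

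The genes most like the members were sought by Pearson's r, over the 10 muscle libraries, with the mean log2 level of the members. NUDT3, a hydrolase of inositol and nucleotide phosphates, came first with r = 0.97, then LDHA with 0.96, CASQ1 with 0.96, GADL1, a decarboxylase, with 0.95 and C14H19orf47 with 0.95. Each stayed at 0.89 or above without sheep 48. The 3 genes most opposed were CRELD1, a protein of the endoplasmic reticulum, with r = -0.94, USE1, of vesicle transport, with -0.94, and RIPK1, a kinase of cell death signalling, with -0.93. RIPK1 had a mean of 598 ± 201 in prenatal T and 316 ± 34.1 in control sheep (SD, n = 5 each). These genes were picked as the extremes over all other genes tested, so their r is a description.

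In liver 2 members passed the filter and neither was called by limma among 13640 genes, of which 0% were called lower and 0.00733% higher. TPM1 averaged 582 ± 150 (SD, n = 5) in prenatal T and 550 ± 60.8 (SD, n = 4) in control liver, and TNNI2 averaged 39.5 ± 30.1 (SD, n = 5) in prenatal T and 57.8 ± 22.3 (SD, n = 4) in control liver. The log2 fold changes were 0.051 ± 0.24 for TPM1 and -0.84 ± 0.57 for TNNI2 (SE), each with a limma adjusted p of 0.999. The difference of both treatment effects of TPM1, muscle minus liver, was -0.54 ± 0.26 (SE), with an unadjusted p of 0.0552 and a limma adjusted p of 0.973, a comparison added after seeing the data. With the sheep as a block the unadjusted p was 0.0437 and the adjusted p 0.808. For TNNI2 the difference was 0.58 ± 0.57 (SE), with a limma adjusted p of 0.973.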

How the data were processed

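RNA of muscle and liver went through the TruSeq RNA kit, per the labels' protocols. The submitters' processing notes name Trimmomatic, STAR and featureCounts 1.6.1. Genome build, annotation and strand setting are not given in the sources used here. Values of the deposited table are a signal, reads per gene scaled by the authors for each library. The scaling was recovered from the values. To within 0.01 read, 100% of values were whole reads, and their factors matched median-of-ratios size factors of each tissue to a relative 1.2e-10. These reads total 8455563 to 14331578 per muscle and 10236610 to 16046301 per liver library. Gene names are those of the deposited table. They were looked up in an NCBI table of ARS-UI_Ramb_v3.0, where MYLPF stands under MYL11. The NCBI table gives no transcript lengths or sequences, so levels were not compared between genes.

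Each tissue was fitted on its own with limma 3.58.1 (R 4.3.3, mean-variance trend), after adding 1 and taking log2, on genes whose mean reached 10. That scale understates the change of low genes. The alternatives were edgeR 4.0.16 and DESeq2 1.42.0 on recovered reads, other pseudocounts, filters and scalings, robust shrinkage, array weights, leaving out each library in turn, and a joint fit of both tissues with and without a block for sheep. Lists without sheep 48 and the difference between tissues were added after seeing the data. The tests were tried on simulated counts. The members and gene lists were chosen with earlier results of these data known. Besides the members, the partners and the counterparts, up to 4 genes per list with the smallest p, defining markers and the extremes of likeness were named. AMPD1 and LOC101111980 were named after their values were seen. MYH7, MYH4, MYH13, MYH3, MYH8 and MYOZ1 were not used here, so ratios to MYH7 have no value.

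Replicates were separate sheep, and libraries of 1 group differed beyond counting noise in all 36 pairs (lowest chi-square over its degrees of freedom 19.4). Liver and muscle of 1 sheep are paired by the sheep number. In the 9 sheep with both, deviations from group means correlated at a median of 0.18, from 0.10 to 0.35, against -0.019 between different sheep.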

Additional observations from a re-analysis of the deposited data

Results flagged for a closer look

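Among 68 groups of values looked at for a lone extreme animal, 2 were picked out, and chance picks about 1 in 20. MYL1 in prenatal T muscle was highest in sheep 233, at 55093, with the nearest of the other 4 at 41810. The log2 ratio of MYL1 to MYL3 in control muscle was highest in sheep 132, at 5.33, with the nearest of the other 4 at 3.51. Sheep 132 had 52839 for MYL1, inside the control range, and 1316 for MYL3, the lowest of all 10 animals.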

How the results depend on the processing

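All 10 members stayed below 0 under 21 of 23 alternatives. The others scaled to all reads, where MYLPF had 0.10 and TNNC2 0.13, and to reads outside the muscle lists, where they had 0.038 and 0.063. These scalings moved the median of all genes to 0.19 and 0.13, and that of the members to -0.25 and -0.32. The 3 members lower at an unadjusted p under 0.05 became 0 with no filter or either of these scalings, 5 with a mean of at least 50, edgeR or robust shrinkage, and 6 by DESeq2. It was 1 in a fit of all 19 libraries, with or without the sheep as a replicate block, and the block changed no call. Without 1 library it ran from 0 to 4, as named in the report. ACTN3 stood at the edge, with an unadjusted limma p of 0.0499 in the main fit, 0.0505 at a pseudocount of 4 and 0.0531 with TMM scaling. The count was thus below 3 in those settings too. Past the adjusted threshold there were 0 members, and 1 by DESeq2. Over all muscle genes limma called 1, with 0 at a pseudocount of 0.25 or a mean of at least 50, 80 when scaled to all reads, 25 to reads outside the lists, 259 by DESeq2 and 0 to 4 without 1 library. The cause was not tested. Ratios at an unadjusted exact p under 0.05 numbered 1 to 3 without 1 library, with 3 without control sheep 131. Differences that changed sign without 1 library ran from -0.25 to 0.38 for MYH2 to PYGM, -0.47 to 0.18 for MYL1 to MYL3, -0.27 to 0.11 for MYBPC2 to MYBPC1, -0.38 to 0.030 for TNNT3 to TNNT1, -0.58 to 0.092 for MYH1 to MYH2, and -0.11 to 0.044 for TNNT3 to TNNI2. In liver TPM1 ran from -0.071 to 0.17. Each member had at least 12862 reads in every muscle library, so the number of reads limits the counting of none of them. Sheep 48 and control sheep 201, both low for the members, had the fewest reads of their groups, at 8741992 and 8455563. Over the 10 muscle libraries the mean log2 level of the members and log2 reads per library had a Pearson's r of 0.35. The part of depth in the results was not tested.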

Other observations

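LOC101111980, a protein-coding gene with no symbol, stands next to MYH1 in the assembly ARS-UI_Ramb_v3.0, and was examined after its values were seen. It had 389, 4079, 2468, 3261 and 2873 in prenatal T muscle (sheep 48, 63, 185, 233 and 255), against 8654, 4005, 926, 4465 and 3954 in control muscle (sheep 98, 131, 132, 179 and 201). Sheep 48 was again the lowest of all 10 animals and sheep 132 the lowest control. Its log2 fold change was -0.79 ± 0.63 (SE), with a limma adjusted p of 0.595. It was listed at 0 in 8 of 9 liver libraries.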
